A study of Mus musculus with 21 samples.

Results

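Endothelial cells line every vessel of the heart, and the module described here is a set of 43 genes that mark their identity, their junctions, their transport functions and their arterial or capillary fate. Members were chosen by name, and each was read from the probe set annotated to that gene alone with the highest mean over all arrays. Of the 43, 42 had such a probe set, out of 19937 genes in the file. The exception was Ly6c1, a capillary surface protein, whose probe sets are shared with its near-identical neighbour Ly6c2, so it is not analysed here. All 42 reached a log2 level of 5 on at least 3 arrays, the limit for testing, and so stood among 11384 tested genes. A level is a log2 array signal throughout, and a change is a difference between log2 levels.

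The study measured total RNA of the left ventricle, 1 sample per array, on 21 arrays from mice aged 9 to 13 weeks. Some mice carried Tg(αMHC-MerCreMer), a tamoxifen-activated Cre recombinase under the promoter of α-myosin heavy chain, which is active in cardiomyocytes and not in endothelial cells; the labels name no floxed allele. These mice, called MerCreMer below, received intraperitoneal tamoxifen (40 mg/kg) or control injections for 1 day or for 4 consecutive days, with 3 arrays in each of the 4 groups. Wild-type mice received 4 tamoxifen (3 arrays) or 4 control injections (6 arrays), and hearts were collected 4 days after dosing ended. The content of the control injection is not given in the sources used here. Each group of 3 held 1 male and 2 females, and in every MerCreMer group the male was replicate 1; the wild-type controls held 3 of each sex. Nothing states that the arrays of a group came from separate mice, so p-values measure the spread between these samples.

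As background, endothelial identity is held by ETS and SOX transcription factors, which keep genes such as Cdh5 and Pecam1 active. Capillary cells of the heart, the most numerous endothelial cells there, take up fatty acids and pass them to cardiomyocytes. Notch signalling sets arterial fate, and flow-sensing and peptide receptors tune vessel tone and growth.

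The defining endothelial genes Cdh5 and Pecam1 were measured on every array; both are members, so their levels are a description and no separate check of the label. Cdh5, the vascular cadherin of endothelial junctions, lay between 8.71 and 9.43 on the 21 arrays, and Pecam1, an adhesion molecule of the same junctions, between 8.29 and 8.94. Arrays of the MerCreMer 4 tamoxifen group varied most among themselves. Their residual variance over the members was 0.083, against 0.0168 to 0.0279 in the other groups, and over all tested genes 0.106 against 0.0153 to 0.0221. SEs and p-values below rest on 1 spread per gene shared by all groups, also where n is given for the groups compared. In comparisons with the MerCreMer 4 tamoxifen group, SEs are therefore on average too small and p-values too low.

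**Figure D1:**
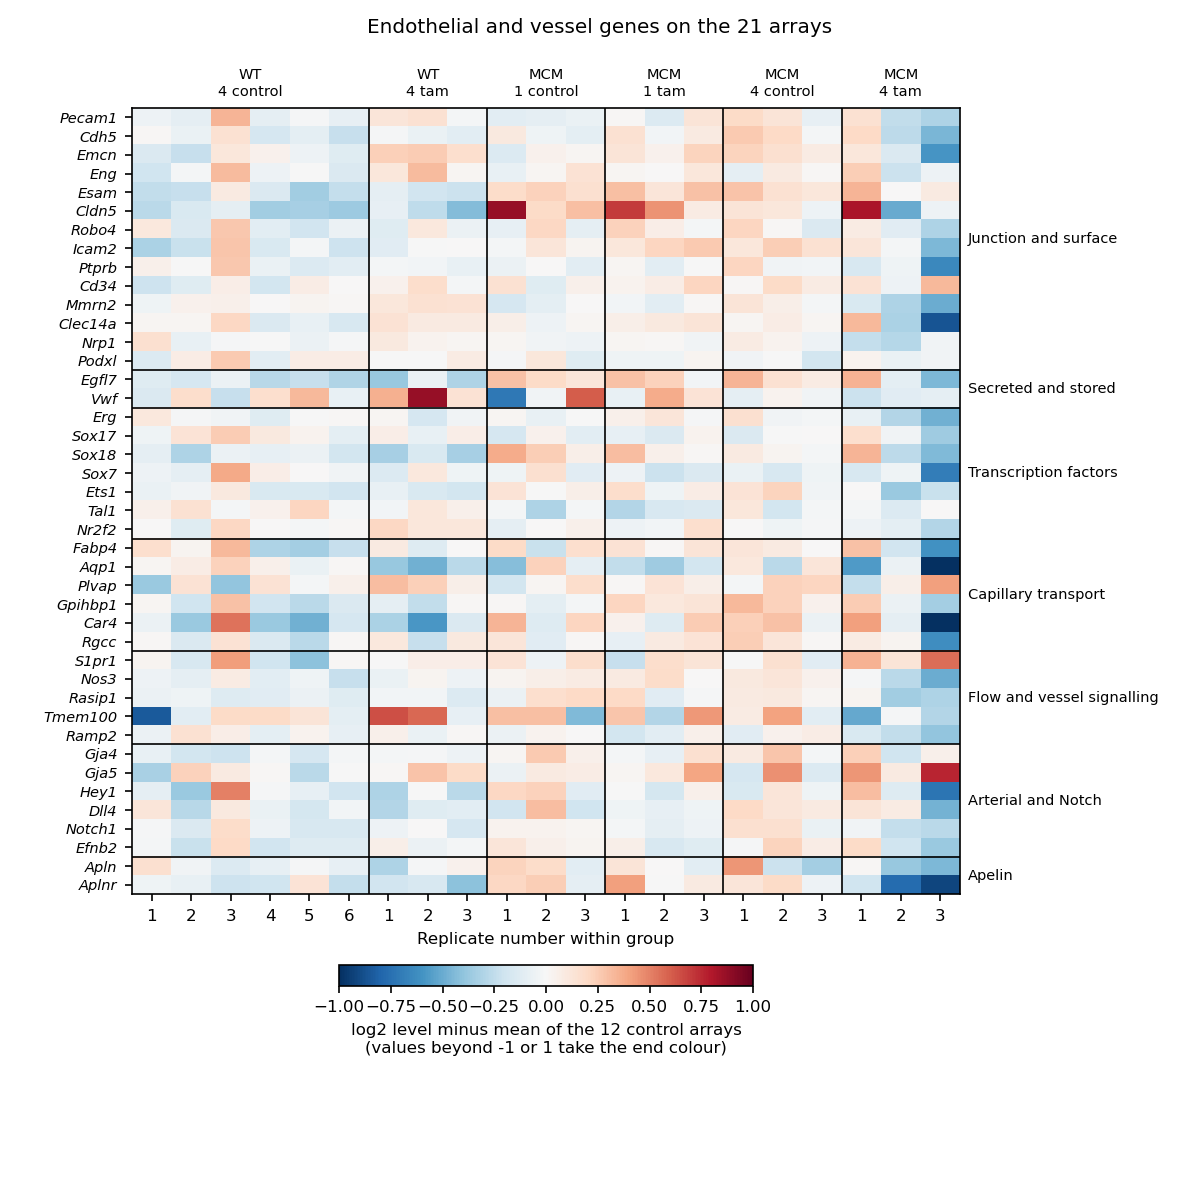
Log2 level of each of the 42 measured members (rows, by role) on each of the 21 arrays (columns, by group and replicate number; WT is wild type, MCM is MerCreMer, tam is tamoxifen), drawn as the difference from that gene's mean over the 12 control arrays. Blue is lower and red is higher, and the darkest blue runs down MerCreMer 4 tamoxifen replicate 3, which held the lowest of 21 levels for 27 of the 42 members.

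Endothelial genes of MerCreMer hearts were first compared between 4 tamoxifen and 4 control injections. In all, 13 of 42 members fell, 0 rose and 29 were not called by limma at an adjusted p under 0.05. Over all tested genes 23.3% were called in the same comparison, 9.41% lower and 13.9% higher. The median change of the members was -0.23 and 37 of 42 changes were negative, while the median over all tested genes was 0.01. The apelin receptor gene Aplnr had the largest change among the members, -0.72. In a whole ventricle, fewer endothelial cells, less RNA per endothelial cell and a larger share of RNA from other cells cannot be told apart.

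The count of called members moved with the arrays in the fit and with the settings. With only the 6 arrays of these groups in the fit 0 members were called, and with weights from the variance of each group 2, Aplnr (adjusted p = 0.044) and Mmrn2 (adjusted p = 0.0394). Over all genes these settings called 18 and 900 in place of 2654. Without MerCreMer 4 tamoxifen replicate 3, 5 members were called (Aplnr, Mmrn2, Ets1, Erg and Nrp1) and the median was -0.0953. Without replicate 1 of that group 19 were called and the median was -0.334, and without replicate 2 of it 12 were called (11 lower, 1 higher) and the median was -0.228. Without control replicates 1, 2 and 3 the counts were 6, 5 (4 lower, 1 higher) and 7. Of the 13 members, those that kept their call numbered 6, 4 and 7 without control replicates 1, 2 and 3, and 11, 10 and 5 without tamoxifen replicates 1, 2 and 3. Aplnr, Mmrn2 and Erg were called under each of these 6 omissions. Ets1 lost its call under 1 (control replicate 2), Nos3 under 2 (control replicate 2 and tamoxifen replicate 3), Cdh5 and Ramp2 under 3, Aqp1, Emcn, Notch1 and Ptprb under 4, and Nrp1 and Rasip1 under 5. An array split described with the genotype comparison, entered as a block, left 10 members called. With only the 8 brighter arrays of that split 0 were called and the median was -0.335. The control arrays of that fit were all female, while replicate 1 of each tamoxifen group was male. Sex was thus estimated within the tamoxifen groups alone, and the value of -0.335 depends on that estimate.

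The 3 arrays of the group differed in extent. Relative to the mean of the MerCreMer 4 control arrays, the median member stood at 0.03 on replicate 1, -0.24 on replicate 2 and -0.41 on replicate 3, and the median tested gene at 0.06, 0.01 and -0.01. The number of members below the control mean was 20 on replicate 1, 37 on replicate 2 and 36 on replicate 3, of 42. Replicate 1 was the male of the group, so sex and array cannot be told apart here. With female arrays only, 12 members were called, 9 of them among the 13, and the median was -0.31. Macrophage markers had median deviations of 0.93, 0.33 and 1.85 on replicates 1, 2 and 3, in a different order of size from the members. All 16 tested macrophage markers rose, and their mean level ran from 6.76 to 8.24 after 4 tamoxifen injections against 6.35 to 6.39 in the controls. Their part in the endothelial result was not tested.

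**Figure D2:**
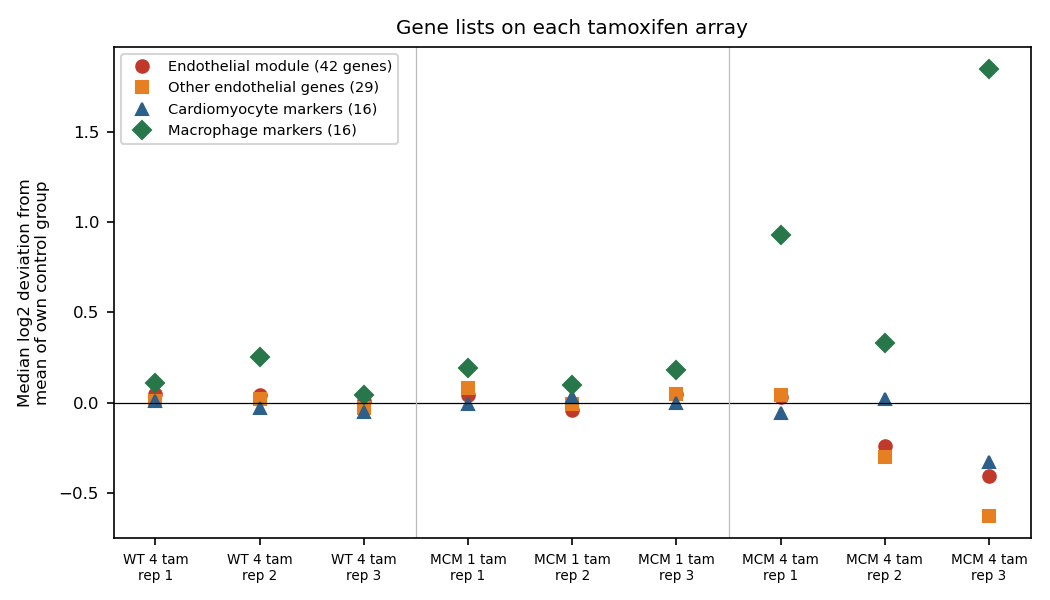
Median log2 deviation of 4 gene lists from the mean of the matching control group on each of the 9 tamoxifen arrays; each point is 1 list on 1 array. On MerCreMer 4 tamoxifen replicates 2 and 3 the endothelial module sat at -0.24 and -0.41 and the macrophage markers at 0.33 and 1.85, while on replicate 1 they sat at 0.03 and 0.93.

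Among 14 genes of the junctions and cell surface 5 fell, Cdh5, Emcn, Ptprb, Mmrn2 and Nrp1, while the other 9 did not pass, and the median change was -0.21. Mmrn2, multimerin 2 of the endothelial matrix, had levels of 8.34, 8.27 and 8.19 in the MerCreMer 4 controls and 8.06, 7.90 and 7.71 after tamoxifen. All 3 tamoxifen arrays lay below all 3 controls. It fell 1.3-fold (change -0.38, SE 0.0778, 95% interval -0.54 to -0.21, n = 3 per group, limma adjusted p = 0.00248).

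Cdh5 stood at 9.43, 9.37 and 9.15 in the controls and 9.37, 8.91 and 8.71 after tamoxifen. The groups overlapped, because tamoxifen replicate 1 matched the second control. Cdh5 fell 1.25-fold (change -0.32, SE 0.0975, limma adjusted p = 0.026, n = 3 per group), and was at -0.204 without tamoxifen replicate 3 (adjusted p = 0.133). Emcn, the capillary and venous sialomucin endomucin, had control levels of 8.49, 8.43 and 8.35 and tamoxifen levels of 8.38, 8.12 and 7.68. Tamoxifen replicate 1 again lay within the control range and replicate 3 far below it. Emcn fell 1.29-fold (change -0.36, SE 0.126, limma adjusted p = 0.0453, n = 3 per group), and was at -0.176 without replicate 3 (adjusted p = 0.263). Ptprb, the endothelial phosphatase that acts on Cdh5 and the Tie2 receptor, measured 8.92, 8.67 and 8.68 in the controls against 8.55, 8.66 and 8.06. The groups did not overlap, but replicate 2 lay only just under the lowest control. Ptprb fell 1.26-fold (change -0.34, SE 0.112, limma adjusted p = 0.038, n = 3 per group), and was at -0.174 without replicate 3 (adjusted p = 0.215).

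Nrp1, a co-receptor for vascular growth factors and semaphorins, was lower on tamoxifen replicates 1 and 2 rather than on replicate 3. Its controls spanned 9.17 to 9.30, and its levels after tamoxifen were 8.98, 8.94 and 9.19, with replicate 3 inside the control range. The change was -0.21 (SE 0.0738, limma adjusted p = 0.0481), and without replicate 3 its adjusted p was 0.00455, but without replicate 1 or 2 of that group it was 0.141 or 0.121. Pecam1, the most used endothelial marker, measured 8.79, 8.73 and 8.52 in the controls and 8.75, 8.35 and 8.29 after tamoxifen. Replicates 2 and 3 lay under all controls and replicate 1 did not. Its change of -0.22 did not pass the test (SE 0.114, limma adjusted p = 0.178).

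The other 8 surface members were not called. Clec14a, a lectin-like receptor that binds Mmrn2, was at -0.32 (adjusted p = 0.156), with tamoxifen levels of 6.56, 5.92 and 5.37 around controls of 6.25 to 6.31. Icam2, an adhesion molecule for leukocytes, was at -0.28 (adjusted p = 0.14), and Robo4, a vessel-stabilising guidance receptor, at -0.14. Esam and Cldn5, tight junction proteins, were at -0.03 and 0.03. Cldn5 nevertheless ranged widely, with 7.66, 6.34 and 6.79 after tamoxifen against 6.79 to 6.97 in the controls. Eng, a co-receptor for BMP and TGF-β ligands, was at -0.01, and Cd34 and Podxl, sialomucins of the luminal surface, were at 0.04 and 0.05. The 95% interval for Eng, -0.28 to 0.25, leaves room for a fall of the size of Nrp1.

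The ETS factors Erg and Ets1 stood among the members that fell, and the SOX factors did not pass the test. Fli1, an ETS factor outside the module, was at -0.09 and was not called (limma adjusted p = 0.446). Erg, the ETS factor most tied to endothelial identity, had control levels of 7.07, 6.88 and 6.89 and tamoxifen levels of 6.84, 6.62 and 6.43. All 3 tamoxifen arrays were lower than all controls. Erg fell 1.24-fold (change -0.31, SE 0.08, limma adjusted p = 0.00987, n = 3 per group). Ets1, an ETS factor also present in lymphoid and stromal cells, measured 7.76, 7.85 and 7.59 against 7.63, 7.25 and 7.40. Replicate 1 after tamoxifen lay within the controls, so the groups overlapped. Ets1 fell 1.24-fold (change -0.31, SE 0.0778, limma adjusted p = 0.00967, n = 3 per group). Sox7, Sox18 and Sox17, the SOX factors of endothelium, were at -0.21, -0.15 and -0.03, with adjusted p from 0.286 to 0.892. Tal1, a haematopoietic and endothelial factor, was at -0.02, and Nr2f2, the venous factor, at -0.13. For Nr2f2 the groups did not overlap, yet its adjusted p was 0.302.

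Among 5 genes of flow sensing and vessel signalling Nos3, Rasip1 and Ramp2 fell. Nos3, endothelial nitric oxide synthase, had control levels of 7.22, 7.24 and 7.16 and tamoxifen levels of 7.11, 6.85 and 6.62. No tamoxifen array reached the lowest control. Nos3 fell 1.27-fold (change -0.35, SE 0.094, limma adjusted p = 0.0132, n = 3 per group). Ramp2, which pairs with the calcitonin receptor-like receptor to bind adrenomedullin, measured 8.21, 8.37 and 8.40 against 8.17, 8.08 and 7.93. The groups were separate, by a small margin at replicate 1. Ramp2 fell 1.2-fold (change -0.27, SE 0.0875, limma adjusted p = 0.0354, n = 3 per group). Rasip1, a Ras-interacting protein needed to open vessel lumens, stood at 7.42 to 7.5 in the controls, and at 7.43, 7.05 and 7.09 after tamoxifen. Replicate 1 overlapped the controls and the other two lay well below. Rasip1 fell 1.21-fold (change -0.28, SE 0.0945, limma adjusted p = 0.0416, n = 3 per group).

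The remaining pair of signalling genes went in opposite directions without passing the test. Tmem100, a membrane protein induced by BMP signalling in vessels, was at -0.39 (SE 0.277, adjusted p = 0.319). S1pr1, the receptor for sphingosine phosphate that stabilises vessels, was at 0.33 (SE 0.163, adjusted p = 0.151). S1pr1 measured 8.01, 8.17 and 7.90 in the controls and 8.36, 8.14 and 8.57 after tamoxifen, and replicate 3 gave its highest level on any of the 21 arrays.

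Aplnr and its ligand gene Apln form the apelin pair, a peptide system of sprouting and capillary endothelium. Aplnr measured 8.69, 8.76 and 8.52 in the MerCreMer 4 controls and 8.37, 7.80 and 7.65 after tamoxifen. Its lowest level in any other group was 8.16, on a wild-type tamoxifen array, so replicates 2 and 3 lay below all 18 arrays of the other groups. Aplnr fell 1.64-fold (change -0.72, SE 0.141, 95% interval -1.01 to -0.42, n = 3 per group, limma adjusted p = 0.00174). Apln was at -0.23 (SE 0.15, adjusted p = 0.268), and its 3 controls were themselves spread, with an SD of 0.421.

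Of 6 capillary transport genes Aqp1 fell and the others did not pass, at a median change of -0.27. Aqp1, the water channel of continuous capillaries, measured 10.10, 9.73 and 10.12 in the controls and 9.43, 9.94 and 9.00 after tamoxifen. The groups overlapped at replicate 2. Aqp1 fell 1.44-fold (change -0.53, SE 0.183, limma adjusted p = 0.0443, n = 3 per group), and was at -0.288 without replicate 3 of the tamoxifen group (adjusted p = 0.253). It was also lower in wild-type hearts after tamoxifen, at 9.52 to 9.73 against 9.93 to 10.23 in their controls, though not called there. Car4, a carbonic anhydrase of the capillary surface, had the same mean change of -0.53 but was not called (SE 0.298, adjusted p = 0.209). Its tamoxifen levels were 7.65, 7.15 and 5.8 against controls of 7.18 to 7.53, so that replicate 3 alone lay clearly outside. Rgcc, a cell cycle regulator of capillary endothelium, was at -0.30, Gpihbp1, which holds lipoprotein lipase on capillaries, at -0.25, and Fabp4, a fatty acid carrier, at -0.24. Plvap, the diaphragm protein of fenestrated and venous vessels, was at -0.07, and its level on replicate 3 was the highest of the 21 arrays.

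Of 6 arterial and Notch genes Notch1 fell and the others did not pass, at a median of -0.19. Notch1, the main endothelial Notch receptor, measured 8.07, 8.07 and 7.84 in the controls and 7.87, 7.67 and 7.64 after tamoxifen. Replicate 1 sat just above the lowest control. Notch1 fell 1.2-fold (change -0.27, SE 0.0849, limma adjusted p = 0.0303, n = 3 per group). Dll4, its arterial ligand, was at -0.22, Efnb2, the arterial ephrin, at -0.22, Hey1, a Notch target, at -0.16, and Gja4, an arterial connexin, at -0.09. Gja5, the connexin of large arteries and the conduction system, was the highest member at 0.38 (SE 0.177, adjusted p = 0.123). It measured 5.89, 6.51 and 5.92 in the controls and 6.5, 6.15 and 6.82 after tamoxifen, so the groups overlapped.

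Secreted and stored proteins did not pass the test. Vwf, the clotting glycoprotein stored in endothelial granules, measured 7.43, 7.56 and 7.49 in the controls and 7.31, 7.41 and 7.43 after tamoxifen. The tamoxifen levels were lower by a margin that vanishes at 2 decimals, and the change was -0.11 (SE 0.205, limma adjusted p = 0.732). Over all groups Vwf ran from 6.81 to 8.39, a range far wider than this change. Egfl7, a secreted protein of the endothelial matrix, was at -0.26 (SE 0.127, adjusted p = 0.145), with 8.65, 8.20 and 7.85 after tamoxifen against 8.38 to 8.64. In all, 8 of 42 members had groups that did not overlap, with tamoxifen lower, and 11.3% of all tested genes did so in that direction; 0 did so with tamoxifen higher, against 16.6%. Replicate 3 held the 21-array minimum for 27 members and the maximum for 4, Cd34, S1pr1, Plvap and Gja5.

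**Figure D3:**
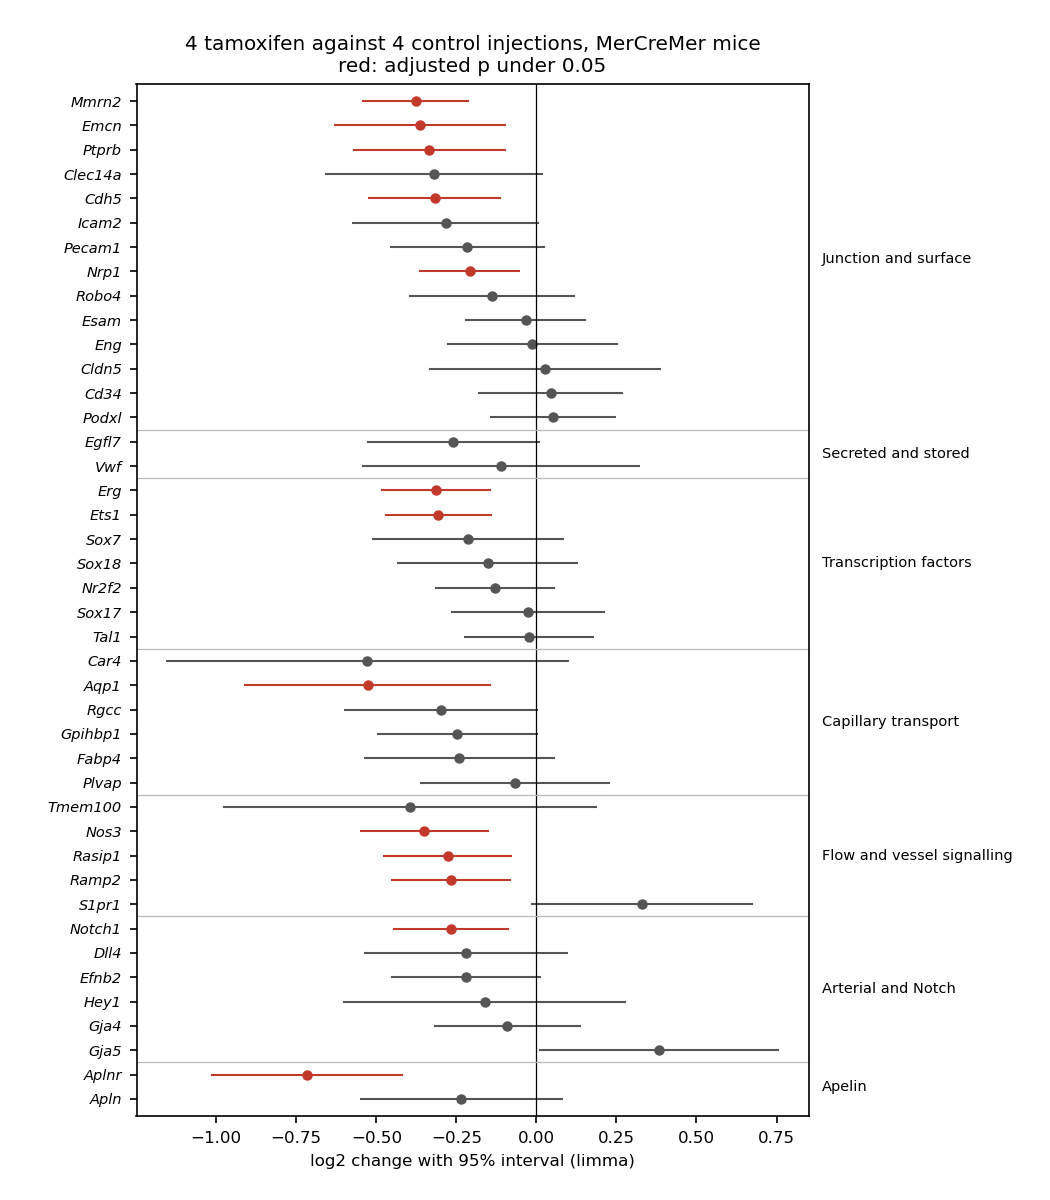
Log2 change of each of the 42 members after 4 tamoxifen against 4 control injections in MerCreMer mice (points) with 95% intervals from limma (bars), 3 arrays per group, ordered by role. The 13 called members, in red, run from -0.72 for Aplnr to -0.21 for Nrp1, and the highest point is Gja5 at 0.38, whose adjusted p was 0.123.

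**Figure D4:**
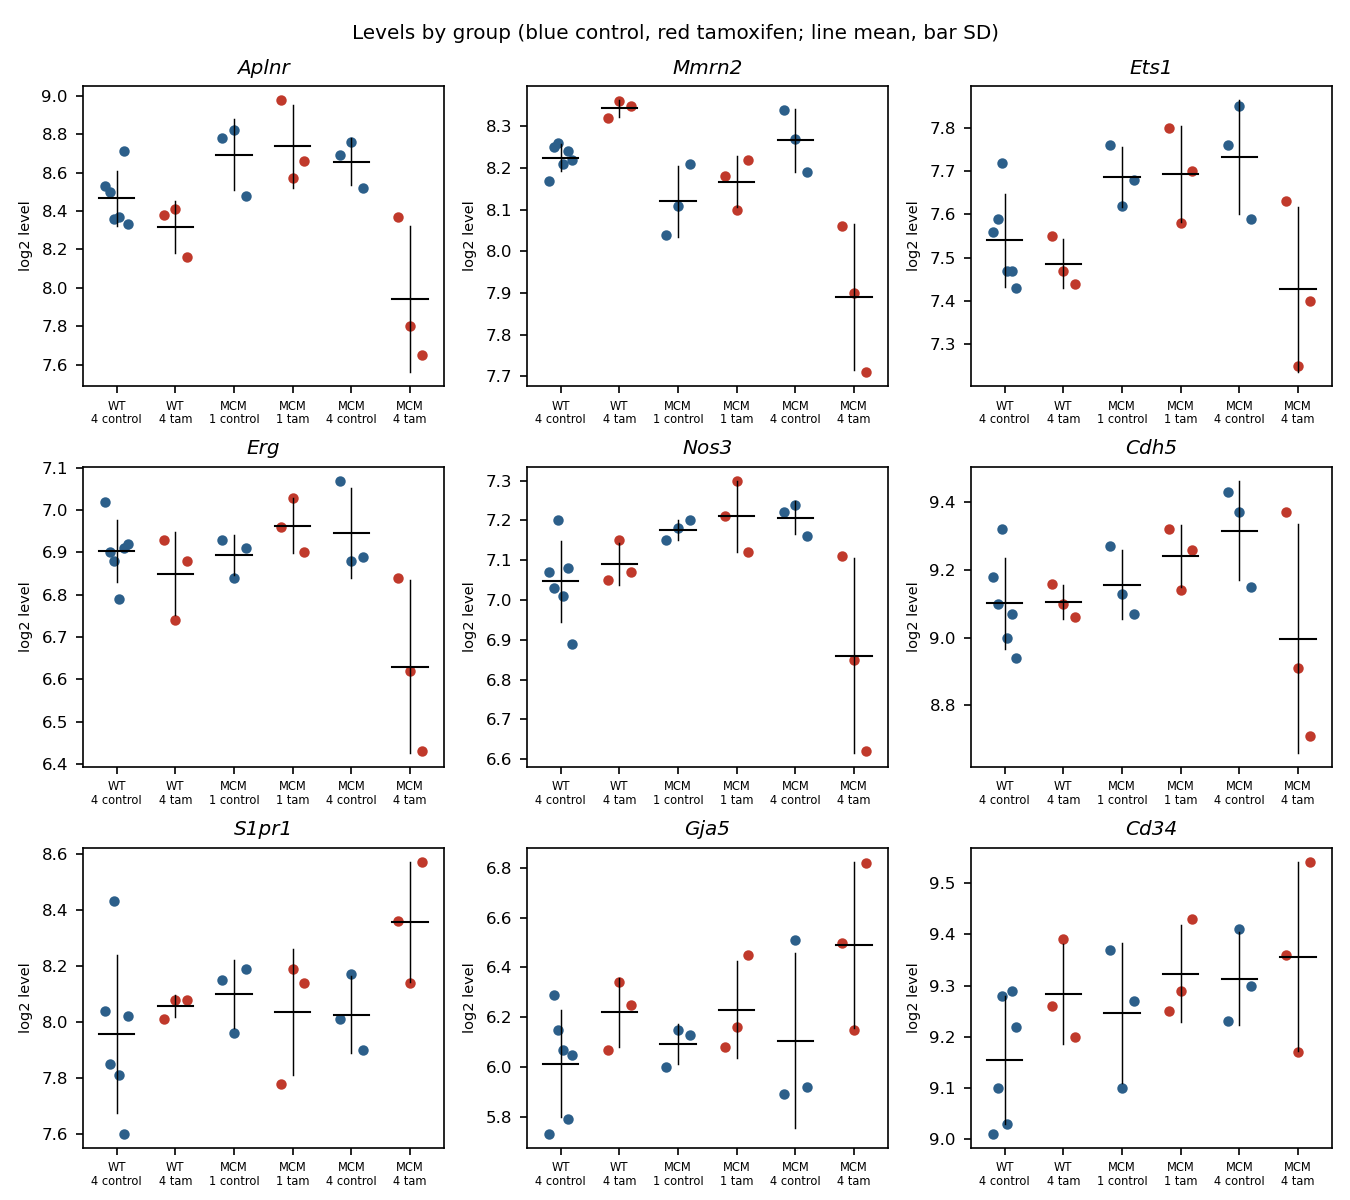
Log2 level on every array (points; blue control, red tamoxifen) with group mean (line) and SD (bar) for 6 members called lower, Aplnr, Mmrn2, Ets1, Erg, Nos3 and Cdh5, and for 3 that were not called, S1pr1, Gja5 and Cd34. Each axis spans that gene's own range and does not start at 0; for Aplnr the MerCreMer 4 tamoxifen points run from 7.65 to 8.37, and for S1pr1 from 8.14 to 8.57.

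Because 2 ETS factors fell, promoters of called members were searched for a short ETS motif. RefSeq promoters of build GRCm38.p6, from 250 bases before to 50 after each start, were in the table for 22 of the 43 members, 28 promoters in all. The letters CNGGAAG, on either strand, were found in 13 of the 28 (46.4%) and in 31.9% of all 32851 promoters. A SOX motif, AACAANG, was in 7.1% of the members' promoters against 14.1% of all, and an RBPJ motif, TGGGAA, in 17.9% against 25.6%. A match is a description of the letters and no binding was measured. Counted by gene, 12 of the 22 members in the table, called or not, held the ETS letters at any start. Of the 13 called members 6 were in the table, Erg, Notch1, Rasip1, Aqp1, Emcn and Nrp1, and 4 of these held the ETS letters. The 250 bases before the start of those 4 are shown 5′ to 3′ along the gene, with the match in capitals, for Erg at the one of its 3 starts that holds it. On the strand printed the match reads as the reverse complement and lies 40 to 34 bases before the start in Erg, 91 to 85 in Rasip1, 174 to 168 in Emcn and 239 to 233 in Nrp1.
Erg, chr16:95459349-95459598 (minus strand): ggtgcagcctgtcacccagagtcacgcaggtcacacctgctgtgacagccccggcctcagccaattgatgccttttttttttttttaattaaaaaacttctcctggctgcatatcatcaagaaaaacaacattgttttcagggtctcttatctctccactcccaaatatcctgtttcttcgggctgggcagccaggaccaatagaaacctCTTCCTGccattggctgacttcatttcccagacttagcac
Rasip1, chr7:45627287-45627536 (plus strand): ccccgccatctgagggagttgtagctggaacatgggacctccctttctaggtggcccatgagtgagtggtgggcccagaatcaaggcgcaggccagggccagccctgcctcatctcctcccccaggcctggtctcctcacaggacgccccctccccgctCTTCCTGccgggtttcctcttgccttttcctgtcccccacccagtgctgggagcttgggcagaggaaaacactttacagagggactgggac
Emcn, chr3:137340828-137341077 (plus strand): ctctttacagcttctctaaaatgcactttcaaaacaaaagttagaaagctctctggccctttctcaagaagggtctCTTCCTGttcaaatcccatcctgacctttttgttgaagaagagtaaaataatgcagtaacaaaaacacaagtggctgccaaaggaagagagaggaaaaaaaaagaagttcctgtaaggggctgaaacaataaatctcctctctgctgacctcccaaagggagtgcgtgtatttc
Nrp1, chr8:128358823-128359072 (plus strand): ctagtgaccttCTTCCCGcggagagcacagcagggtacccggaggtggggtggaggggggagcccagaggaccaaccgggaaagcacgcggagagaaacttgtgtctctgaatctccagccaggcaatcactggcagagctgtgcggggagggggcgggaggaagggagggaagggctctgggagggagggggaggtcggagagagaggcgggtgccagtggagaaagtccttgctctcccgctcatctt

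Further endothelial genes were read from a list of 29 tested genes that are not members. Of these, 8 fell and 0 rose, with a median of -0.27, and on the 3 tamoxifen arrays, in replicate order, the list's median stood at 0.04, -0.30 and -0.63. She, an adaptor protein of endothelium, fell by 0.51 (SE 0.0901), and Bcl6b, an endothelial repressor, fell by 0.43 (SE 0.106). Cd36, a fatty acid translocase of capillaries, macrophages and cardiomyocytes, fell by 0.74 (SE 0.15). The mean level of the list ran from 7.22 to 7.77 after tamoxifen and from 7.69 to 7.78 in the controls. Pathway lists around the members gave mixed counts. In this comparison 13.9% of all tested genes were called higher and 9.41% lower, and single calls in lists this short cannot be told from those shares. Of 15 further Notch genes Rbpj, the Notch effector, rose by 0.30 (SE 0.0947), and Dll1, a ligand, fell by 0.32 (SE 0.108); the median was -0.01 and the mean level ran from 6.44 to 6.48 against 6.45 to 6.53. Of 12 genes of the BMP receptor arm 3 rose, the mediator Smad5 by 0.35 (SE 0.0604), the inhibitor Smad7 by 0.46 (SE 0.127) and the target Id3 by 0.25 (SE 0.0857), with a median of 0.10 and levels of 6.63 to 6.75 against 6.58 to 6.68. Of 7 genes of the KLF and nitric oxide axis Cav1, the caveolar inhibitor of Nos3, which is also among the 29 genes above, fell by 0.40 (SE 0.133), with a median of -0.09 and levels of 6.11 to 6.37 against 6.20 to 6.32. Of 7 activation genes Sele, the cytokine-induced selectin, rose by 0.77 (SE 0.246), with a median of 0.32 and levels of 5.83 to 6.29 against 5.82 to 5.91.

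Calls among markers of specialised endothelia went in both directions, beside the same 13.9% higher and 9.41% lower over all tested genes. Among 6 lymphatic markers Lyve1, a hyaluronan receptor that macrophages also carry, rose by 0.97 (SE 0.174) and Pdpn, podoplanin, by 0.95 (SE 0.306), while Prox1, the lymphatic master factor, which cardiomyocytes also express, fell by 0.63 (SE 0.182). Flt4 (-0.05), Mmrn1 (0.13) and Reln (-0.13) of this list were not called. The list's median was 0.04, and its mean level ran from 6.32 to 6.46 against 6.07 to 6.23. Among 5 endocardial markers Cytl1, a secreted protein, fell by 1.37 (SE 0.266), with a median of -0.32 and levels of 5.27 to 5.54 against 5.63 to 5.71.

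Marker lists of other cell types gave the setting on the same arrays, again beside 13.9% higher and 9.41% lower over all tested genes. Cardiomyocyte markers held 3 lower of 16, Ryr2, Pln and Ttn, of calcium release, calcium uptake and the sarcomere (changes -1.34, -0.77 and -0.43), with a median of -0.14 and levels of 11.53 to 12 against 12.08 to 12.09. Fibroblast markers held 1 higher, Mfap5 (1.05), and 1 lower, Gsn (-0.47), of 12, with a median of 0.09 and levels of 8.54 to 9.41 against 8.40 to 8.51. Pericyte and smooth muscle markers held 2 higher of 10, Cspg4 (0.50) and Des (0.46, also a cardiomyocyte gene), with a median of -0.01 and levels of 8.17 to 8.66 against 8.13 to 8.22. Among the macrophage markers the smallest p-values were those of Mrc1 (1.22), Cd68 (1.62) and C1qc (1.06), and the median change was 1.04. Of 3 platelet markers Pf4 (1.20) rose, with levels of 4.95 to 5.42 against 4.97 to 5.06, and the neutrophil and acute phase gene Lcn2 (2.40) rose, with that list at 3.91 to 4.57 against 3.72 to 3.88. Not called were the erythroid markers Slc4a1 and Alas2 (0.23 and -0.07, list levels 5.04 to 5.64 against 5.15 to 5.45), Thy1 of the lymphocyte list (0.13, 3.77 to 4.15 against 3.92 to 4.12) and the mesothelial markers Upk3b and Wt1 (0.20 and -0.01, 4.73 to 4.95 against 4.41 to 4.69). All 6 measured adipocyte markers, Adipoq and Plin1 among them, lay below 5 on every array, as did 6 of 7 neutrophil markers, including S100a8 and S100a9.

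After a single day of tamoxifen, MerCreMer hearts gave 0 called members of 42 by limma, where 0.00878% of all tested genes, 1 gene, was called, and 0 members had an unadjusted p under 0.05, as 380 of all 11384 tested genes did. Changes ran from -0.17 for Aqp1 to 0.19 for Vwf, with a median of 0.02. Aplnr measured 8.78, 8.82 and 8.48 in the 1 control group and 8.98, 8.57 and 8.66 after tamoxifen, and Mmrn2 8.04, 8.11 and 8.21 against 8.18, 8.10 and 8.22. Both pairs of groups overlapped. Gpihbp1 (higher) and Notch1 (lower) were the only members with separate groups, 1 of 42 in each direction, where 6.88% and 3.51% of all tested genes were separate. The difference between the 4-day and the 1-day effect was tested as an interaction, which uses the MerCreMer 4 arrays of the first comparison again. Aplnr (difference -0.76, SE 0.2, 95% interval -1.18 to -0.34, limma adjusted p = 0.0326) and Mmrn2 (-0.42, SE 0.11, limma adjusted p = 0.0308) passed, 2 of 42 members, where 3% of all tested genes passed in that direction and 2.78% in the other (5.78% in all). Erg (-0.38) had an adjusted p of 0.0553 and Cdh5 (-0.40) of 0.0917. With only the arrays of the 4 groups 0 members passed, and leaving out single arrays gave 0 to 9, with 9 when MerCreMer 4 tamoxifen replicate 1 was omitted and 4 when replicate 2 was. It was 0 without 1 control replicate 1, 1 tamoxifen replicate 1 or 3, or 4 control replicate 1 or 2, and 1 without 1 control replicate 2 or 3 or 4 control replicate 3. The median difference over the members was -0.21. She (-0.62) and Palmd (-0.55), from the further endothelial genes, were also lower by this test. She was at -0.51 after 4 days and 0.11 after 1 day, while Palmd was at -0.21 and 0.34, neither called, so its difference lay largely in the 1-day value.

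In wild-type hearts 4 tamoxifen injections gave 0 called members, as for all tested genes (0%), and 2 members had an unadjusted p under 0.05, as 295 of all 11384 did. These were Aqp1 (change -0.43, SE 0.159) and Emcn (0.30, SE 0.11), both with an adjusted p of 1. Aqp1 measured 9.62, 9.52 and 9.73 after tamoxifen, below all 6 wild-type controls, which spanned 9.93 to 10.23. Emcn measured 8.51, 8.52 and 8.44, above the wild-type controls at 8.04 to 8.38. With Mmrn2, also above its controls, 2 of 42 members were separate and higher and 1 separate and lower, against 1.73% and 1.69% of all tested genes. The median member changed by 0.04. Pecam1 was at 0.10 and Cdh5 near 0, with 9.16, 9.10 and 9.06 after tamoxifen inside the control range of 8.94 to 9.32.

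The difference of the tamoxifen effect between genotypes was called for 2 of 42 members, Emcn and Mmrn2, beside 7.98% of all tested genes. Emcn differed by -0.66 (SE 0.168, 95% interval -1.01 to -0.31, limma adjusted p = 0.0224) and Mmrn2 by -0.50 (SE 0.103, limma adjusted p = 0.00673). This comparison uses the MerCreMer 4 arrays again. In wild-type mice all 3 tamoxifen arrays lay above all controls for both genes (Mmrn2 at 8.32, 8.36 and 8.35 over controls of 8.17 to 8.26), while in MerCreMer mice the means were lower after tamoxifen. These were 2 of 42 members called lower, where 3.53% of all tested genes were, 4.45% were higher and 7.98% were called in all. The median difference was -0.27, and 38 of 42 differences were negative, but members measured on the same arrays are not independent. Nos3 (-0.41, adjusted p = 0.052) and Aplnr (-0.59, adjusted p = 0.0584) missed the threshold. With female arrays only 0 members were called (median -0.381), with array weights 6, and leaving out single arrays gave 1 to 10. The count was 10 on omitting MerCreMer 4 tamoxifen replicate 1 and 4 on omitting replicate 2. It was 1, Mmrn2, without MerCreMer 4 control replicate 1 (Emcn adjusted p = 0.0638) or without wild-type tamoxifen replicate 1 (0.0517) or 2 (0.0544). Of the other endothelial genes Cd36 (-0.78), Nostrin (-0.62), a Nos3 trafficking protein, and She (-0.46) were also lower by this test, and of the endocardial markers Cytl1 (-1.67) and Npr3 (-1.12). Of these, Nostrin and Npr3 were not called in MerCreMer mice (-0.27 and -0.44), and their wild-type changes, also not called, were 0.35 and 0.68. Called higher by this test were Lyve1 (0.80) of the lymphatic markers and Id3 (0.42) and Smad5 (0.27) of the BMP receptor arm.

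MerCreMer and wild-type hearts were also compared after 4 control injections, with no tamoxifen. Esam, an adhesion molecule of endothelial tight junctions, was higher in MerCreMer mice and was the 1 member called of 42, where 0.676% of all tested genes were called, 0.545% higher and 0.132% lower. Esam measured 8.25, 8.12 and 8.08 in the MerCreMer 4 controls and 7.62 to 8.06, with a median of 7.74, in the 6 wild-type controls. The groups did not overlap, although wild-type replicate 3 came close. The difference was 1.31-fold (0.39, SE 0.0772, 95% interval 0.23 to 0.55, n = 3 and n = 6, limma adjusted p = 0.0237). Egfl7 differed by 0.41 (adjusted p = 0.0833), Cldn5 by 0.39 (adjusted p = 0.22), Cdh5 by 0.25 (adjusted p = 0.164) and Ets1 by 0.21 (adjusted p = 0.133). Groups were separate and MerCreMer higher for 5 of 42 members, Esam, Egfl7, Cldn5, Sox18 and Rasip1, and separate and lower for 0, against 8.49% and 4.05% of all tested genes. The median difference of the members was 0.16 with 34 of 42 positive, against 0.03 over all tested genes. Of the pathway lists, Id3 (0.41) and Mfng (0.37), a Notch glycosyltransferase, were also higher in MerCreMer mice.

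The separation by genotype was then read over all arrays outside the MerCreMer 4 tamoxifen group. In Esam, Egfl7, Cldn5 and Sox18, all 9 MerCreMer arrays outside the 4 tamoxifen group lay above all 9 wild-type arrays, 4 of 42 members, where 1.55% of all tested genes did so, and 0 members lay below (0.334% of all tested genes). Egfl7 spanned 8.27 to 8.64 on those MerCreMer arrays and 7.92 to 8.24 in wild type. Cldn5 spanned 6.79 to 7.71 against 6.41 to 6.76, and Sox18, a SOX factor of vessel growth, 7.65 to 8.04 against 7.34 to 7.61. After 4 tamoxifen injections the 3 MerCreMer arrays were scattered, with Sox18 at 8.01, 7.41 and 7.23 and Egfl7 at 8.65, 8.20 and 7.85.

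A split of the arrays ran with genotype. A probe set with no gene name split the arrays, chosen after the data were seen, into 13 with levels of 11.22 to 11.36 and 8 with levels of 11.47 to 11.52. All 9 wild-type arrays and 4 of the 12 MerCreMer arrays were on the dimmer side, and the labels give no batch. With this split as a block, the Esam difference was 0.325 (limma adjusted p = 0.179) and 0 members were called. Among the MerCreMer arrays outside the 4 tamoxifen group Esam spanned 8.09 to 8.25 on the 3 dimmer and 8.08 to 8.27 on the 6 brighter arrays. Of the MerCreMer 4 controls only replicate 1 was on the dimmer side with the wild-type arrays. The block fit used all 21 arrays and took the offset between the sides from the MerCreMer groups, as every wild-type array was dimmer. Egfl7 spanned 8.53 to 8.64 on the dimmer and 8.27 to 8.59 on the brighter arrays. The Esam call was also lost with no sex covariate (0.368, adjusted p = 0.0577), with female arrays only (0.381, adjusted p = 0.159), without any single MerCreMer 4 control array (adjusted p from 0.0739 to 0.141), and without wild-type control replicate 2, 5 or 6 (0.0501, 0.0674 and 0.0555). With weights from the variance of each group 5 members were called higher.

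**Figure D5:**
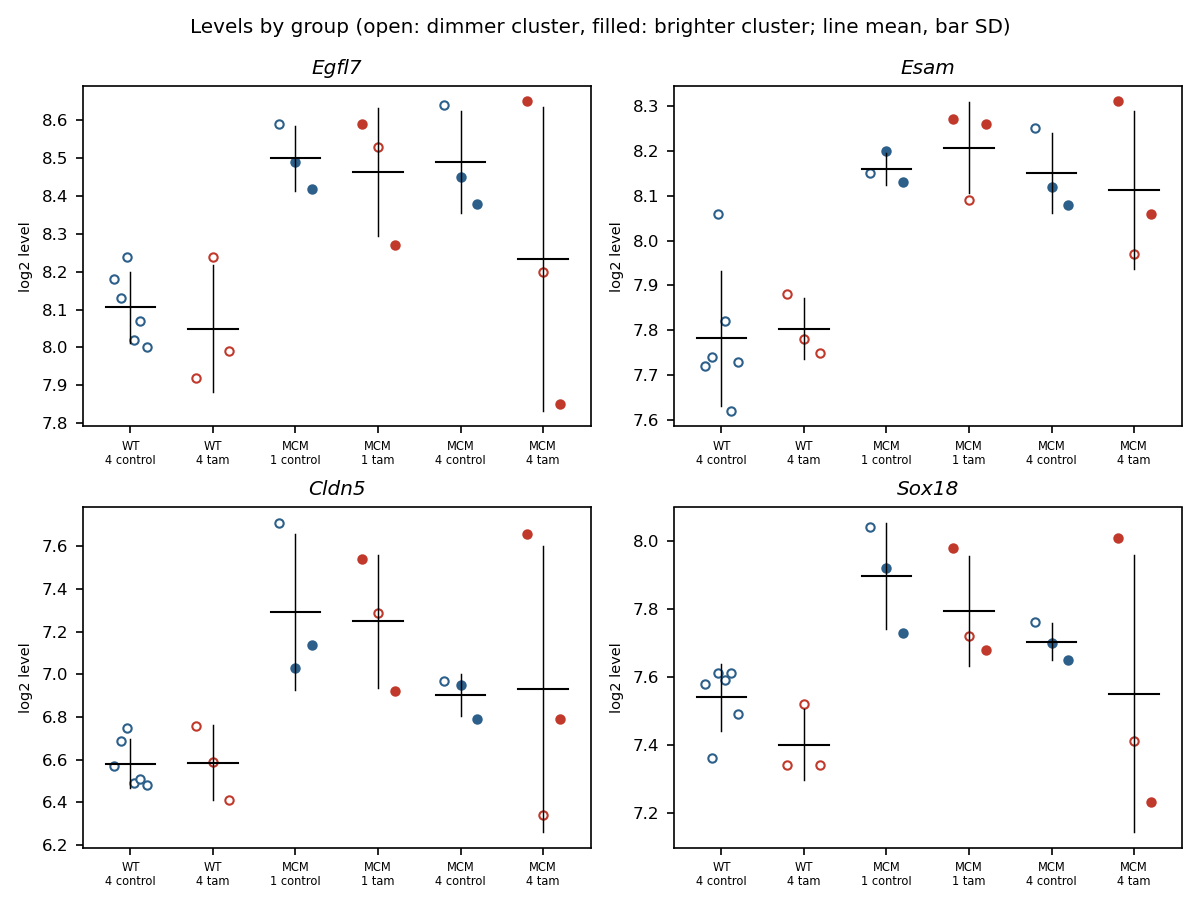
Log2 level on every array (points; open on the dimmer and filled on the brighter side of the array split, blue control, red tamoxifen) with group mean (line) and SD (bar) for Egfl7, Esam, Cldn5 and Sox18. Each axis spans that gene's own range and does not start at 0; in Esam every wild-type point lies at or below 8.06 and every MerCreMer point outside the 4 tamoxifen group at or above 8.08.

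The number of control injections and sex gave 0 called members each by limma, against 0% and 0.29% of all tested genes (for sex 0.158% higher and 0.132% lower in males). MerCreMer mice after 4 against 1 control injections had a median member difference of 0.03, 1 unadjusted p under 0.05 (375 of all 11384 tested genes), and the largest difference in Cldn5, -0.39 (SE 0.171). Its groups were separate, as were those of Emcn and Gpihbp1 in the higher direction, 1 and 2 of 42 members against 4.12% and 5.67% of all tested genes. Males had higher levels than females for 35 of 42 members, with a median of 0.07 and 15 unadjusted p under 0.05, where 1103 of all 11384 tested genes had one. The smallest p was that of Cldn5, 0.40 higher in males (SE 0.0951, adjusted p = 0.11), followed by Fabp4 (0.31, adjusted p = 0.147) and Cdh5 (0.21, adjusted p = 0.147). Over all tested genes 6004 of 11384 were higher in males. Without MerCreMer 4 tamoxifen replicate 1, a male, the median was 0.0347.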

How the data were processed

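Left ventricle RNA was hybridised to 1 array per sample. Values are the log2 signals the authors deposited, summarised with RMA per the submitters' processing notes (version not given in the sources used here); its quantile step forces arrays to 1 distribution, and array medians lay between 4.57 and 4.72. Of 34760 probe sets, 21640 name 1 gene, 1321 several and 11799 none in the platform annotation, and 99.6% of Entrez identifiers matched current symbols. The best single-gene probe set was kept for each of 19937 genes, and the 11384 with a log2 of at least 5 on at least 3 arrays were tested in limma 3.58.1 (R 4.3.3), with 6 group means and sex, 14 residual and 3.98 prior degrees of freedom, and Benjamini-Hochberg adjustment. An adjusted p under 0.05 was a call. Array number limits the precision. Members and lists were chosen with earlier results of these data known. Per-array values were given for up to 12 members with the smallest p in the first comparison, for members called elsewhere, and for Pecam1, Cdh5 and Vwf; others were described after their values were seen. Lists give up to 3 called genes. Alternatives are in the closing section, and the array split and the brighter arrays were added after seeing the data.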

Additional observations from a re-analysis of the deposited data

Results flagged for a closer look

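Wild-type control replicate 3 was high over much of the module: its median deviation from the wild-type control mean was 0.19, 9 of 42 members lay below that mean, and it held the highest of 21 levels for 14. By a gap test within the group it stood apart from the other 5 wild-type controls for 3 genes. Pecam1, the junction adhesion molecule, was 8.94 there and 8.51 to 8.59 on the others. Eng, the BMP co-receptor, was 9.51 against 9.00 to 9.19, and Sox7, a SOX factor, was 7.28 against 6.81 to 6.97. On wild-type control replicate 1, Nrp1 was highest at 9.38 (9.15 to 9.22 on the others) and Tmem100, the BMP-induced membrane protein, was lowest at 5.83 (6.56 to 6.86). These were 5 of 42 members, and chance flags about 1 in 20 groups, here 2.1 if members were independent, which members on 1 array are not.

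Tests of the difference between effects picked out Emcn and Mmrn2 between genotypes, at -0.66 and -0.50 on the log2 scale, with 4 tamoxifen injections lower in MerCreMer mice. Between 4 and 1 injection days in MerCreMer mice they picked out Mmrn2 at -0.42 and Aplnr at -0.76. No other of the 42 members was called by either test, while 7.98% and 5.78% of all tested genes were. With female arrays only, no member was called by either. The part of the spread of the MerCreMer 4 tamoxifen arrays in these differences was not tested.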

How the results depend on the processing

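After 4 tamoxifen injections in MerCreMer mice, members called were 0 with only the arrays compared, 2 with own-variance weights, 8 with array weights, 6 with no filter and 0 with the 8 brighter arrays (median -0.335), against 13; leaving out single arrays gave 5 to 19, with medians of -0.334 to -0.0953. For MerCreMer against wild type the counts were 0 with no sex covariate, 3 with only the arrays compared, 5 with own-variance weights, 7 with array weights, 0 with females and 0 with the array split as a block, against 1; single omissions gave 0 to 1, with medians of 0.099 to 0.177. For the difference between genotypes they were 6 with array weights, 5 after a second quantile normalisation, 4 with a log2 minimum of 6 and 0 with females (median -0.381), against 2; single omissions gave 1 to 10, with medians of -0.316 to -0.168. For the difference between 4 and 1 injection days they were 1 with no sex covariate, 0 with only the arrays compared, 0 with own-variance weights, 0 with no filter, 0 with females and 0 with the brighter arrays, against 2; single omissions gave 0 to 9, with medians of -0.295 to -0.126. The cause of these shifts was not tested. In the fits of the brighter arrays all controls were female, so sex was estimated within the tamoxifen groups alone. The median after 1 tamoxifen day ran from -0.0232 to 0.0412, for 4 against 1 control injections from -0.0157 to 0.0651, and for sex from 0.0347 to 0.0996 over single omissions, with 0 members called in each. No called value changed sign. Over all genes, 2654 calls after 4 tamoxifen injections became 18 with only the arrays compared, 900 with own-variance weights, 1490 with array weights, 1502 with females and 655 with the brighter arrays, and 1648 to 3846 over single omissions. For single named genes, 86 values under other settings and 58 under omissions lost their call, and 6 and 1 gained one.

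With the replicate number as a block in place of sex, members called were 5, 0, 0 and 1 in these 4 comparisons. Same-numbered arrays deviated together in 15 of 30 pairs (correlation over 0.1; range -0.121 to 0.358), among them all 10 pairs of replicate 1, the male of each group; with sex removed 2 of 30 were over 0.1. Since not every pair passed, the numbers were not taken to pair the samples. Signals near the background limit what small differences in dim members such as Apln can show.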
